A study of Homo sapiens with 4 samples.

Results

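Bitter taste receptor genes (TAS2R genes) encode G protein-coupled receptors for bitter compounds. The set described here holds 10 TAS2R genes, which were TAS2R31, TAS2R19, TAS2R4, TAS2R5, TAS2R14, TAS2R20, TAS2R30, TAS2R43, TAS2R46 and TAS2R50. A gene was taken as measured where a probe set carried its symbol and no other in the platform annotation. By this rule 8 of the 10 were measured, each by 1 probe set, among 21448 probe sets and 17687 named genes in all. TAS2R30 and TAS2R43 had no such probe set and are not analysed here for their levels. The genes were picked with their levels and their differences between the groups already known, so these values are given as a description and without a test. A further 13 TAS2R genes outside the set had a probe set.

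The RNA was from the human lung adenocarcinoma cell line A549 and was hybridised to whole-transcript microarrays. Of the 4 arrays, 2 were from cells expressing H2BK120R, a histone H2B in which the lysine that accepts monoubiquitin is replaced by arginine, and 2 were from cells with the vector alone. Both groups carried a short hairpin RNA against LDOC1 and were grown under puromycin. Per the design text, the hairpin raised and the mutant histone lowered H2B monoubiquitylation, which the arrays did not measure. The study thus compares transcript levels after that mark is lowered in LDOC1-depleted cells. No array with added unmutated H2B and none with intact LDOC1 was analysed here. The labels name no clones and no separate cultures, so p-values here reflect array-to-array spread alone, and it could be technical.

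In taste cells, a bitter compound bound by a TAS2R protein activates the G protein gustducin, whose βγ subunits stimulate phospholipase C β2. The calcium released through the inositol trisphosphate receptor opens the channels TRPM5 and TRPM4, and the cell releases ATP through a channel formed by CALHM1 and CALHM3. TAS2R genes are also known from airway epithelium, where ciliated cells and solitary chemosensory (tuft) cells carry them, and from airway smooth muscle. Human TAS2R genes have a short coding exon without introns and lie mostly in clusters on chromosomes 7 and 12. Within the chromosome 12 cluster many are close copies of each other, so a probe set can also read related genes, which was not tested because probe sequences were not used here.

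RefSeq promoter sequence was at hand for 7 of the 10 genes (TAS2R4, TAS2R5, TAS2R14, TAS2R19, TAS2R20, TAS2R30 and TAS2R50) and for 13 other TAS2R genes, TAS2R42 among them, which had no probe set. Here a promoter is the stretch of 250 bases before the gene start, read 5′ to 3′ on the strand of the gene. The promoters of 4 genes are printed. TAS2R19 and TAS2R50 were the most alike and both genes were higher on the H2BK120R arrays, while TAS2R4 and TAS2R5 are neighbours whose values were unlike. These were picked for display, and whether promoter likeness goes with the difference between groups was not tested. Coordinates are those of the GRCh38.p14 table and not of the arrays. TAS2R19 is at chr12:11022621-11022870 and TAS2R50 at chr12:10986913-10987162, both on the minus strand. TAS2R4 is at chr7:141776424-141776673 and TAS2R5 at chr7:141789967-141790216, both on the plus strand. Capitals mark the octamer ATTTGCAT, which POU transcription factors are known to bind, or its variant ATTAGCAT, searched on both strands (reverse complements ATGCAAAT and ATGCTAAT).
TAS2R19: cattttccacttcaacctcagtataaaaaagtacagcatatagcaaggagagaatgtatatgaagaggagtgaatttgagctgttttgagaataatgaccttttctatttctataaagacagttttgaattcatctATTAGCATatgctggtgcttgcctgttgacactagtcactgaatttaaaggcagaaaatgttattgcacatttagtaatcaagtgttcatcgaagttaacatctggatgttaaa
TAS2R50: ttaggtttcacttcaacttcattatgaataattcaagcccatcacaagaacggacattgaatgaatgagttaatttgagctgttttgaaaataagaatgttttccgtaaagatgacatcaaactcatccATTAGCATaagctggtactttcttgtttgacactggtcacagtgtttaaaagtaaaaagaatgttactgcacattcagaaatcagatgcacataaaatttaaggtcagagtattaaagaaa
TAS2R4: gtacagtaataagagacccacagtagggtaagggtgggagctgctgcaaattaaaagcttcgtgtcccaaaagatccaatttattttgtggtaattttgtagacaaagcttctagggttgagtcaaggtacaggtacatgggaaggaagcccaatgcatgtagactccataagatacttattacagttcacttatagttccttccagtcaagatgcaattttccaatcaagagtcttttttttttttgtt
TAS2R5: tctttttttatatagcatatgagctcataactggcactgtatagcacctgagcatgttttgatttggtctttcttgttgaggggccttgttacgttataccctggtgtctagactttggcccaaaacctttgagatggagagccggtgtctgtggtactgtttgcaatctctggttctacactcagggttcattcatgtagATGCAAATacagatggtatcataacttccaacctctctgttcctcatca

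The octamer was in 10 of 20 TAS2R promoters (50%), against 573 of 35116 promoters of all genes (1.63%) and 5 of 329 olfactory receptor promoters (1.52%). Both motifs were chosen after the sequences were seen, no match of one overlapped a match of the other, and a match is a description of letters only. Of the 10 promoters with the octamer, 9 were among the 13 of TAS2R genes outside the set and 1 was among the 7 of the set. That promoter was that of TAS2R5, where the motif was on the opposite strand and began 49 bases before the gene start. In the other 9 it lay on the strand of the gene, between 57 bases before the start in TAS2R13 and 235 bases in TAS2R7. The variant ATTAGCAT was in 2 of the 7 promoters of the set, 114 bases before the start in TAS2R19 and 121 bases in TAS2R50. It was in 0 of the 13 other TAS2R promoters and in 203 of the 35116 promoters of all genes (0.578%). TAS2R4, TAS2R14, TAS2R20 and TAS2R30 held neither motif in this window.

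**Figure D1:**
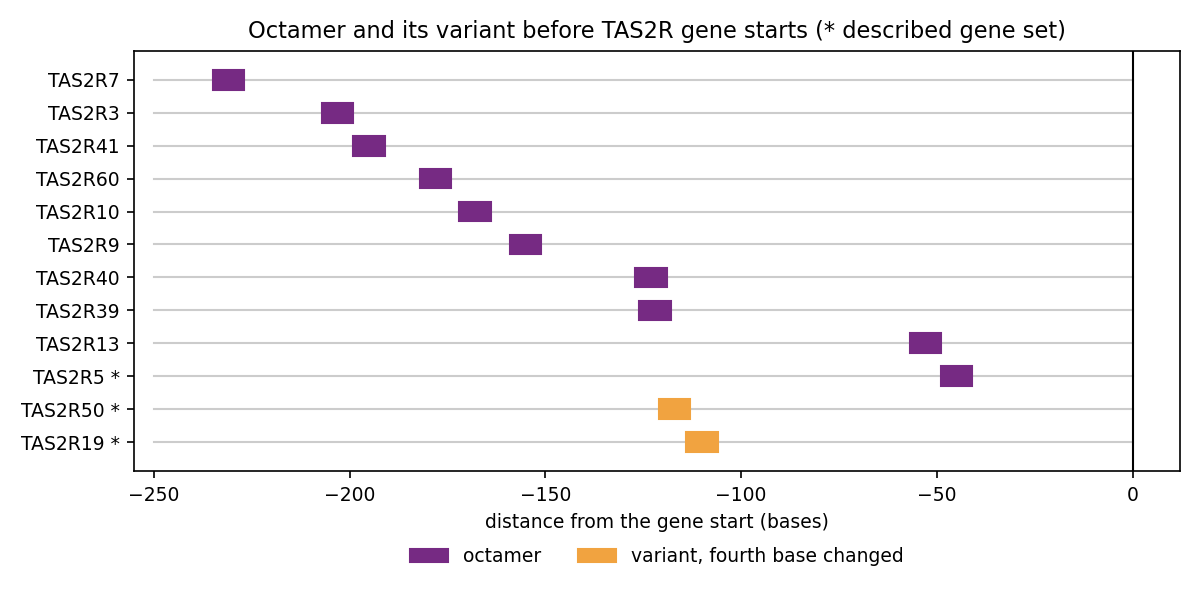
Position of the octamer and of its variant in the 250 bases before the start of TAS2R genes, in bases from the gene start, with 1 row per gene and an asterisk on genes of the described set. The octamer is in 10 genes, from TAS2R7 at 235 bases to TAS2R5 at 49 bases, and TAS2R50 and TAS2R19 carry the variant at 121 and 114 bases.

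In global alignments of the 190 pairs among 20 TAS2R promoters, identity had a median of 45.8% and a range of 40.9% to 67.4%. The 4 most alike pairs were all within the set, and all of them were of genes in the chromosome 12 cluster. TAS2R50 and TAS2R19 shared 67.4% of aligned positions, TAS2R20 and TAS2R30 58.2%, TAS2R14 and TAS2R19 55.2%, and TAS2R14 and TAS2R50 53.1%. TAS2R4 and TAS2R5, neighbours on chromosome 7, shared 43.9%, below the median of all pairs. Other pairs within the set lay on both sides of that median, such as TAS2R14 and TAS2R30 at 49.0% and TAS2R4 and TAS2R19 at 44.4%. The promoters were poor in G and C, with a median of 34.4% over the 7 of the set, against 37% over all 20 and 58% over all genes.

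The 4 arrays had medians between 6.40 and 6.43 on the log2 scale, and the standard deviation of the difference between replicates was 0.38 for the H2BK120R pair and 0.46 for the vector pair. LDOC1, the gene targeted by the hairpin in both groups, was at 8.37 and 8.66 on the H2BK120R arrays and at 8.0 and 8.33 on the vector arrays (difference 0.35 ± 0.23 SE, limma adjusted p = 0.79), and, with the hairpin in both groups, this does not measure depletion. In the check of the cell type, KRT8, KRT18 and KRT7 were at 14.92 or above on every array, while EPCAM was between 5.16 and 5.76 and CLDN4 was low at between 3.33 and 3.61. CDH1, the epithelial cadherin, was at 11.24 and 11.20 on the H2BK120R arrays, against 10.55 and 10.69 on the vector arrays (difference 0.60 ± 0.15 SE, limma adjusted p = 0.65). KRT19 was at 6.59 and 6.31 on the H2BK120R arrays, against 6.75 and 7.10 on the vector arrays, and KRT7 was at 15.33 and 15.07 on the H2BK120R arrays, against 15.57 and 15.46 on the vector arrays. Of the 7 epithelial markers, both H2BK120R arrays were above both vector arrays in 2 (CDH1 and KRT18). They were below both in 3 (KRT7, KRT19 and CLDN4). Over all probe sets these shares were 18.6% above and 17.9% below. The 5 alveolar type II markers lay between 3.19 and 4.84. The comparison of H2BK120R with vector was fitted with limma over the whole table, and p-values were adjusted by the Benjamini-Hochberg method. Each SE given with a difference is limma's moderated one, in which a probe set's own spread is pulled toward that of probe sets of similar level. It can thus be larger or smaller than the replicates of that gene alone would give. At an adjusted p of 0.05, 0 of 21448 (0.0%) passed, the genes of the set included. At an unadjusted p under 0.05 there were 1437 (6.7%).

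No detection calls were at hand, so the 349 probe sets of olfactory receptor genes, which are mostly silent outside the olfactory epithelium, stood for background. Their 4-array means had a median of 3.44 and a 95th percentile of 5.17. Probe sets differ in how strongly they bind, so a position against this range is not an abundance. The 4-array means of 5 of the 8 genes were above that 95th percentile. The olfactory receptor medians were 3.48 and 3.34 on the H2BK120R arrays, against 3.60 and 3.40 on the vector arrays. Over these receptors the median difference was -0.11, and 37.8% of them were higher with H2BK120R. These are levels in bulk RNA, in which fewer cells expressing a gene and less RNA per cell cannot be told apart.

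TAS2R31 responds to saccharin, acesulfame and aristolochic acid and had the largest difference of the 8. Its log2 level was 8.37 and 8.21 on the H2BK120R arrays, against 7.10 and 6.96 on the vector arrays. All 4 values were above the 95th percentile of the olfactory receptors, and the groups lay apart by more than either pair of replicates did. The means were 8.29 ± 0.11 with H2BK120R and 7.03 ± 0.10 with vector (SD, n = 2 each), a difference of 1.26 ± 0.23 (SE) or 2.40-fold. Array by array, H2BK120R minus vector was between 1.11 and 1.41. Ranked by difference, its probe set stood at place 20 of 21448.

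TAS2R19, the neighbour of TAS2R31 in the cluster, whose variants are associated with the taste of quinine, differed by a similar amount from a lower level. It was at 5.04 and 5.64 on the H2BK120R arrays, against 4.10 and 4.15 on the vector arrays. The vector values were below the olfactory receptors' 95th percentile, and of the H2BK120R values 1 was above the 95th percentile of its array. The difference was 1.22 ± 0.33 (SE), or 2.32-fold. Array by array it was between 0.89 and 1.54, and the H2BK120R arrays differed from each other by 0.60.

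TAS2R50, a receptor for andrographolide and amarogentin, was at 4.39 and 4.07 on the H2BK120R arrays, against 3.15 and 3.41 on the vector arrays. The groups did not overlap, but all 4 values were below the olfactory receptors' 95th percentile. The difference was 0.95 ± 0.31 (SE), or 1.93-fold, and array by array it was between 0.66 and 1.24.

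TAS2R4, a receptor that responds to colchicine and to steviol glycosides, lies on chromosome 7 beside TAS2R3 and TAS2R5. It was at 5.90 and 5.74 on the H2BK120R arrays, against 4.67 and 4.89 on the vector arrays. Both H2BK120R values were above the 95th percentile of the olfactory receptors on their arrays and both vector values were below it. The difference was 1.04 ± 0.30 (SE), or 2.06-fold, and array by array it was between 0.85 and 1.23.

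TAS2R5, next to TAS2R4, did not share that direction. It was at 5.36 and 5.42 on the H2BK120R arrays, against 5.16 and 5.94 on the vector arrays. The H2BK120R values lay between the vector values, which differed by 0.78, and the difference of the means was -0.16 ± 0.34 (SE). Without vector replicate 2 it was 0.23, and without vector replicate 1 it was -0.55. TAS2R3, on the other side of TAS2R4, was at 3.76 and 4.23 on the H2BK120R arrays, against 4.02 and 3.98 on the vector arrays.

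TAS2R14, one of the most broadly tuned bitter receptors, and TAS2R20, which responds to cromolyn, exceeded the olfactory receptors' 95th percentile on every array but varied between replicates. TAS2R14 was at 6.96 and 7.87 on the H2BK120R arrays, against 7.01 and 6.34 on the vector arrays. TAS2R20 was at 6.15 and 7.08 on the H2BK120R arrays, against 6.08 and 6.81 on the vector arrays. In both genes the groups overlapped. H2BK120R replicate 2 was the highest of the 4 arrays in each, by 0.91 and 0.93 over H2BK120R replicate 1. The difference was 0.74 ± 0.35 (SE) for TAS2R14 and 0.17 ± 0.37 (SE) for TAS2R20. With 1 array left out, TAS2R14 ranged between 0.28 (without H2BK120R replicate 2) and 1.20 (without H2BK120R replicate 1), and was 0.40 without vector replicate 2. TAS2R20 ranged between -0.30 and 0.64 with the same 2 arrays left out, and was -0.20 without vector replicate 1 and 0.54 without vector replicate 2.

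TAS2R46, a broadly tuned receptor known for strychnine, was at 4.76 and 4.80 on the H2BK120R arrays, against 4.51 and 4.65 on the vector arrays. All 4 values were below that 95th percentile of the olfactory receptors. The groups did not overlap, by a margin of 0.11. The difference was 0.20 ± 0.30 (SE), smaller than the moderated standard error, which borrows spread from other probe sets. The SD of its own arrays was 0.03 with H2BK120R and 0.10 with vector (n = 2 each).

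**Figure D2:**
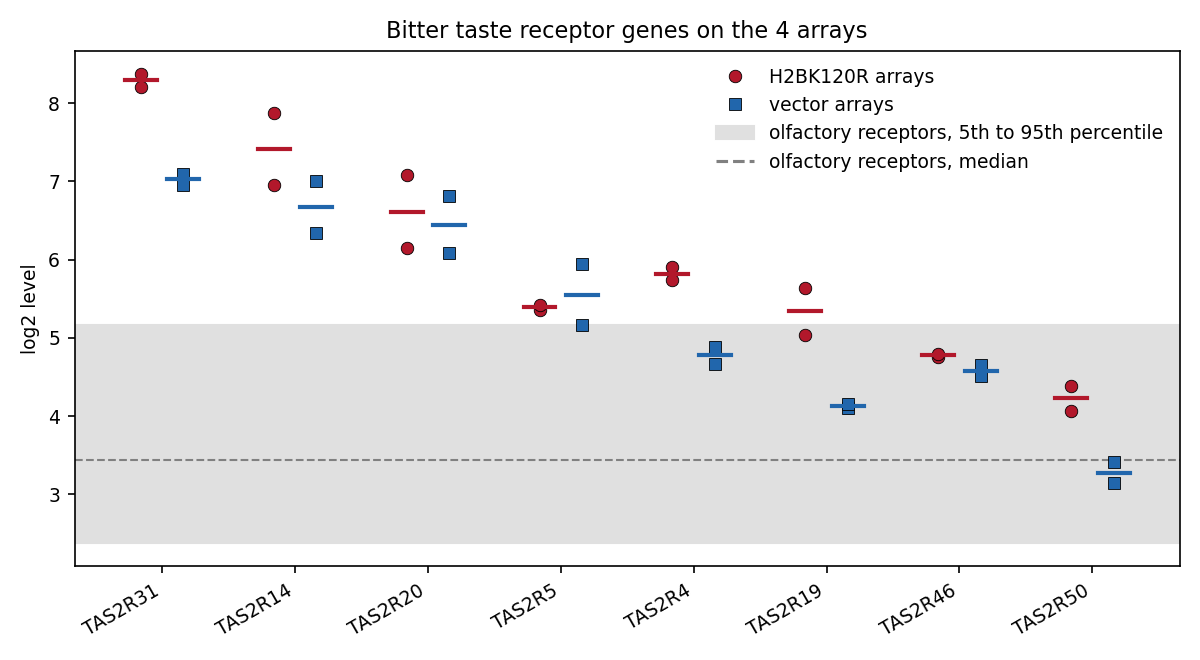
Log2 level of the 8 measured genes on each array, with circles for H2BK120R, squares for vector and a bar at the mean of each group (n = 2), ordered by 4-array mean. The grey band runs from the 5th to the 95th percentile of the 4-array means of 349 olfactory receptor probe sets and the dashed line is their median of 3.44. TAS2R31, TAS2R4, TAS2R19 and TAS2R50 show separate groups, and TAS2R14, TAS2R20 and TAS2R5 show overlapping ones.

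Over the 8 measured genes, 7 were higher on the H2BK120R arrays and 1, TAS2R5, was lower, where 49.9% of all probe sets were higher. Both H2BK120R arrays were above both vector arrays in 5 of the 8, where 18.6% of all probe sets did the same. A difference of 1 or more on the log2 scale, which is 2-fold, was reached by 3 of the 8 and by 73 of all probe sets (0.34%). The 8 genes had a median difference of 0.84, beside 0.00 over all probe sets. Nothing is read from these shares, since the genes were chosen on this comparison. Differences of that size were more frequent among dim probe sets. Ordered by level and cut into 4 equal bins, the 73 fell 22, 39, 12 and 0 into the bins, dimmest first, with TAS2R19 and TAS2R4 in the second bin and TAS2R31 in the third.

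The 13 TAS2R genes outside the set were mostly below the 95th percentile of the olfactory receptors. Of these 9 were higher and 4 lower on the H2BK120R arrays, with a median difference of 0.08 and a range of -0.36 to 0.94. In limma 0 of the 13 passed, the smallest adjusted p was 0.745, and 1 had an unadjusted p under 0.05, where 6.7% of all probe sets did. Both H2BK120R arrays were above both vector arrays in 2 of the 13 (TAS2R13 and TAS2R40), where 18.6% of all probe sets did the same, and the other 11 overlapped. The gene with an unadjusted p under 0.05 was TAS2R13, a receptor for denatonium, at 5.17 and 5.12 on the H2BK120R arrays, against 3.60 and 4.81 on the vector arrays. The TAS2R13 groups did not overlap, and its vector arrays differed by 1.21, more than the difference between the groups of 0.94 ± 0.40 (SE). TAS2R10, another strychnine receptor, was at 5.63 and 6.07 on the H2BK120R arrays, against 5.87 and 5.25 on the vector arrays. TAS2R40, which responds to hop acids, was at 2.35 and 2.38 on the H2BK120R arrays, against 2.10 and 1.78 on the vector arrays, a difference of 0.42 ± 0.26 (SE, limma adjusted p = 0.779) at the low end of the background range. TAS2R38, the receptor for phenylthiocarbamide, was at 2.71 and 2.41 on the H2BK120R arrays, against 2.38 and 3.11 on the vector arrays. The remaining 9 (TAS2R1, TAS2R3, TAS2R7, TAS2R8, TAS2R9, TAS2R16, TAS2R39, TAS2R41 and TAS2R60) differed by between -0.36 (TAS2R8) and 0.24 (TAS2R9).

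The set was taken as a list of genes, and whether position on the chromosome entered its choice is not known. RefSeq places TAS2R13, TAS2R14, TAS2R50, TAS2R20, TAS2R19, TAS2R31 and TAS2R46, in this order, within the span of PRH1, a gene for an acidic salivary proline-rich protein. The unmeasured TAS2R43 and TAS2R30 follow them in the same span, and the read-through gene PRH1-TAS2R14 covers it from TAS2R14 on. PRH1 and PRH1-TAS2R14 have no named probe set here, so transcripts that pass through the TAS2R genes cannot be told apart from TAS2R transcripts. Of the 7 measured genes within PRH1, 7 were higher on the H2BK120R arrays, with a median difference of 0.94 and a range of 0.17 to 1.26. Of these 7 genes 6 belong to the set chosen on this difference, so the count is a description. TAS2R7, TAS2R8, TAS2R9 and TAS2R10, on chromosome 12 outside PRH1, differed by 0.08, -0.36, 0.24 and 0.29, and the groups overlapped in each.

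**Figure D3:**
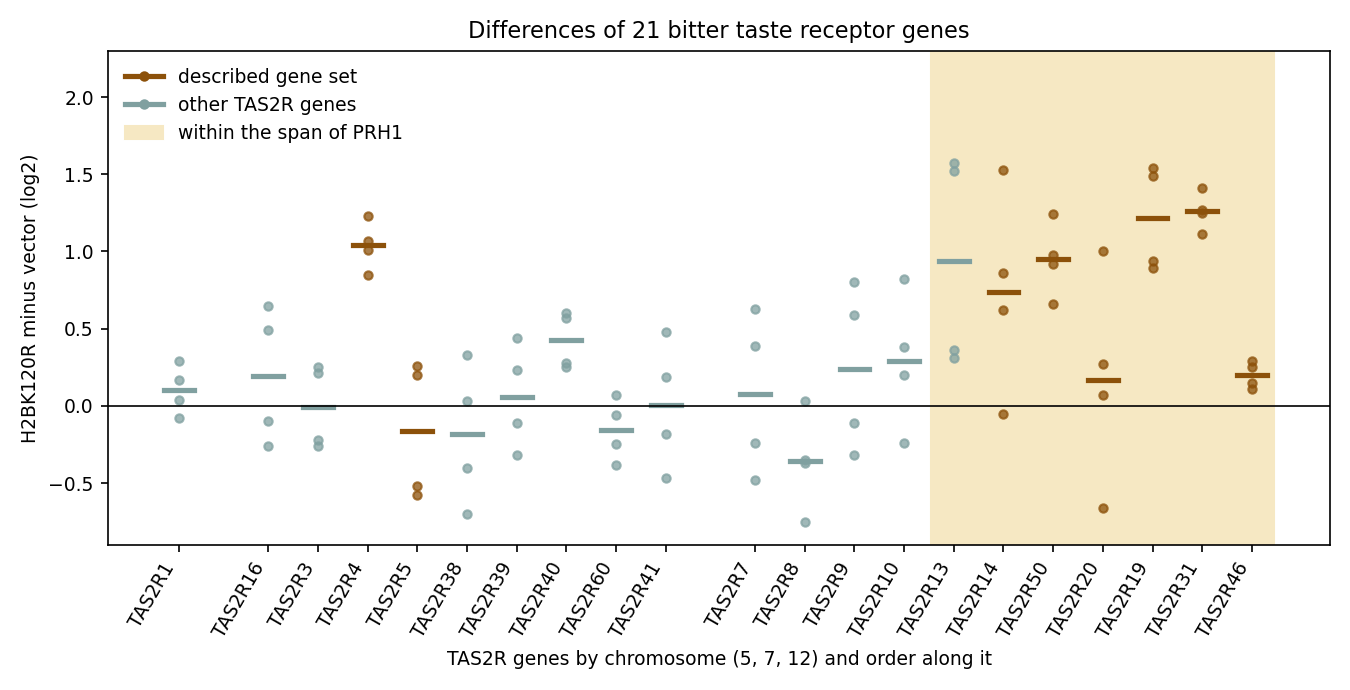
H2BK120R minus vector on the log2 scale for the 21 measured TAS2R genes, ordered along chromosomes 5, 7 and 12. Points are the 4 array-by-array differences, bars their mean, brown the described set and grey-green the other TAS2R genes, and the shaded genes lie within the span of PRH1. All 7 shaded means are above 0, from 0.17 for TAS2R20 to 1.26 for TAS2R31, and on chromosome 7 the mean of TAS2R4 is 1.04.

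Genes around the receptors were taken from RefSeq as the 5 nearest protein-coding genes on each side of a member that are not TAS2R genes, and 17 of 21 were measured. In limma 0 of the 17 passed, 9 were higher and 8 lower on the H2BK120R arrays, and the median difference was 0.06. At an unadjusted limma p under 0.05 there was 1 of the 17, where 6.7% of all probe sets had such a p. This gene was PRR4, which encodes a lacrimal and salivary proline-rich protein and joins PRH1 in a read-through transcript. It lies outside the stretch from TAS2R13 to TAS2R30, which is only part of the cluster and leaves out TAS2R7, TAS2R8, TAS2R9 and TAS2R10. PRR4 was at 7.84 and 7.82 on the H2BK120R arrays, against 7.49 and 6.88 on the vector arrays (difference 0.64 ± 0.27 SE, limma adjusted p = 0.745). PRH2, a salivary gene that lies between TAS2R13 and TAS2R14, was at 5.07 and 4.50 on the H2BK120R arrays, against 5.11 and 3.65 on the vector arrays. The genes flanking the chromosome 12 cluster included YBX3, a cold shock domain protein, with a difference of 0.14 ± 0.12 (SE), and ETV6, an ETS factor, with 0.12 ± 0.14 (SE). Near TAS2R4, the mitochondrial DNA-binding protein gene SSBP1 differed by -0.07 ± 0.15 (SE) and the serine protease homologue gene PRSS37 by -0.64 ± 0.30 (SE).

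For the genes listed for taste signalling, no difference passed the test in either direction, as for all 21448 probe sets. This does not set them apart from the receptors. Of 19 signalling genes listed 18 were measured, 9 were higher and 9 lower on the H2BK120R arrays, and the median difference was 0.00. The list goes beyond the pathway outlined above and also holds GNAT1, GNAT2, the GNAI genes, RTP3 and RTP4. Both H2BK120R arrays were below both vector arrays in 6 of the 18 (GNAT1, GNAT2, GNAI2, GNG13, PLCB2 and RTP3), where 17.9% of all probe sets did the same, and above both in 2 (GNAI1 and GNB3), where 18.6% did. In limma 0 passed, the smallest adjusted p was 0.745, and 1 of the 18 had an unadjusted p under 0.05, where 6.7% of all probe sets did. That gene was GNAT2, the cone transducin α subunit, at 5.99 and 6.39 on the H2BK120R arrays, against 6.81 and 6.95 on the vector arrays (difference -0.69 ± 0.28 SE, limma adjusted p = 0.745). GNAT3, the α subunit of gustducin, was at 4.89 and 3.99 on the H2BK120R arrays, against 4.25 and 3.83 on the vector arrays, all below the olfactory receptors' 95th percentile. Its partners differed by 0.30 ± 0.29 for GNB3 and -0.26 ± 0.31 for GNG13 (SE). PLCB2, the phospholipase, was at 7.14 and 7.12 on the H2BK120R arrays, against 7.70 and 7.52 on the vector arrays. The groups did not overlap, and the difference was -0.48 ± 0.24 (SE, limma adjusted p = 0.758).

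Downstream of the phospholipase, the calcium channel of the endoplasmic reticulum ITPR3 was at 6.53 and 7.34 on the H2BK120R arrays, against 6.85 and 6.95 on the vector arrays. TRPM4 was at 6.85 and 6.87 on the H2BK120R arrays, against 7.24 and 6.39 on the vector arrays. In both genes the groups overlapped. TRPM5 was between 3.02 and 3.21 on the H2BK120R arrays and between 2.96 and 3.11 on the vector arrays, and CALHM1 and CALHM3 were at 3.67 or below on every array, below the olfactory receptors' 95th percentile. The inhibitory G protein subunit genes, to which TAS2R proteins can also couple, were bright, with GNAI1 at 15.00 and 14.99 on the H2BK120R arrays, against 14.89 and 14.93 on the vector arrays. RTP3 and RTP4, whose products help bitter receptors reach the cell surface, differed by -0.56 ± 0.34 and 0.31 ± 0.32 (SE). The sweet and umami receptor genes TAS1R1, TAS1R2 and TAS1R3 were between 3.28 and 4.09 on the H2BK120R arrays and between 3.13 and 4.57 on the vector arrays, and 0 of the 3 passed, also at an unadjusted p under 0.05.

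**Figure D4:**
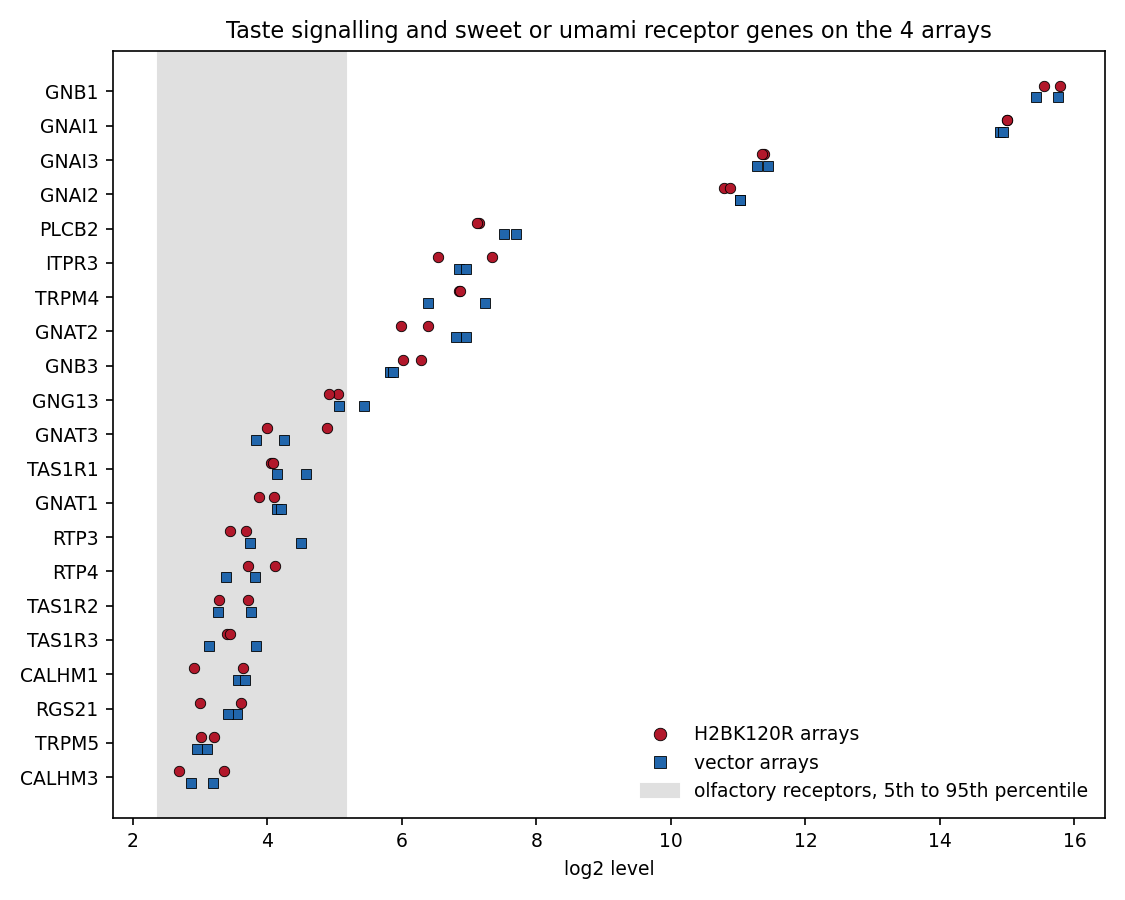
Log2 level of 18 taste signalling genes and 3 sweet or umami receptor genes on each array, with circles for H2BK120R above squares for vector and the grey band from the 5th to the 95th percentile of olfactory receptor means. GNAT3, TRPM5, CALHM1 and CALHM3 lie in the band, and the GNAI genes and GNB1 lie far above it, from 10.79 to 15.78.

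Among markers of cell types known to carry bitter receptors, most tuft cell and cilia genes were below the olfactory receptors' 95th percentile, while 3 of 6 smooth muscle genes were above it on every array. POU2F3, the octamer-binding factor that mouse taste and tuft cells need, was at 4.67 and 4.65 on the H2BK120R arrays, against 4.25 and 3.97 on the vector arrays (difference 0.55 ± 0.30 SE, limma adjusted p = 0.767), all below that percentile. Of 14 tuft and taste cell markers 11 were measured, 4 were higher and 7 lower, and 0 passed. Among the 7 lower were AVIL (difference -0.74 ± 0.39 SE, groups overlapping) and DCLK1 (difference -0.505 ± 0.30 SE, groups not overlapping). At an unadjusted limma p under 0.05 there was 1 of the 11, where 6.7% of all probe sets had such a p. This gene was SUCNR1, the succinate receptor, at 4.19 and 3.57 on the H2BK120R arrays, against 2.95 and 2.99 on the vector arrays (difference 0.91 ± 0.32 SE, limma adjusted p = 0.722). All SUCNR1 values were below the olfactory receptors' 95th percentile. Summed on the linear scale, the 11 tuft markers came to 263 and 253 on the H2BK120R arrays, against 295 and 268 on the vector arrays. The 9 motile cilia genes came to 186 and 138 on the H2BK120R arrays, against 172 and 167 on the vector arrays. FOXJ1, their master regulator, was at 4.80 and 4.33 on the H2BK120R arrays, against 4.22 and 3.96 on the vector arrays. Of these 9 genes 4 were higher and 5 lower. Both H2BK120R arrays were above both vector arrays in 1 (FOXJ1) and below both in 3 (DNAH9, CCDC39 and TEKT1). Over all probe sets these shares were 18.6% above and 17.9% below. The 6 smooth muscle genes summed to 1084 and 1124 on the H2BK120R arrays, against 1235 and 1173 on the vector arrays, most of it from SMTN. In the cilia, smooth muscle, leukocyte, fibroblast and endothelial lists 0 passed in limma, also at an unadjusted p under 0.05. In the epithelial and alveolar type II lists 0 passed too. At an unadjusted limma p under 0.05 CDH1 was higher and KRT7 lower among 7 epithelial markers, and LAMP3 was higher among 5 alveolar type II markers. Over all probe sets 6.7% had such a p, in either direction. LAMP3, a lysosomal membrane protein gene, was at 4.84 and 4.76 on the H2BK120R arrays, against 4.34 and 3.85 on the vector arrays (difference 0.70 ± 0.32 SE, limma adjusted p = 0.745). KRT7 differed by -0.32 ± 0.11 (SE, limma adjusted p = 0.722). The part of these markers in the receptor levels was not tested.

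Likeness to TAS2R31 was measured as the root mean square distance between the 4 array values of 2 genes, each centred on its own mean. Since the pattern has only 4 points in 2 groups, the nearest genes are those with a similar difference between groups and similar replicates. The nearest was GPR135, an orphan G protein-coupled receptor, at a distance of 0.06. CCDC181 and LOC101928269 followed at 0.12 and 0.15, TAS2R4 was in place 4 of 17687 genes at 0.17, and TRIM73 was at 0.18. Within the set, TAS2R50 stood in place 12 at 0.22 and TAS2R19 in place 61 at 0.28, while TAS2R14, TAS2R46, TAS2R20 and TAS2R5 were between 0.50 and 0.78. The set was chosen with this difference known, so the places of its genes, TAS2R4 included, are a description only. GPR135 was at 7.83 and 7.79 on the H2BK120R arrays, against 6.54 and 6.50 on the vector arrays.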

How the data were processed

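The deposited table holds 1 log2 level per probe set and array, made by the authors. The base of 2 is inferred from the range of 1.56 to 19.15, and the 4 array medians, within 6.40 to 6.43, are near equal, as after scaling to a common level. MAS5 is named in the submitters' processing notes, without a version. No source used here says how it was applied. Names came from the platform annotation in GEO (17709 probe sets with 1 symbol, 3739 unnamed here) and the symbols checked in RefSeq GRCh38.p14, with 0 updates. The brightest probe set stood for a gene.

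The model was limma's (version 3.58.1, R 4.3.3), lmFit and then eBayes with trend, 2-sided, with Benjamini-Hochberg adjustment over 21448 probe sets. The SE of each difference is the moderated one of this fit, while each SD is of the 2 arrays of a group. The fit was tested on simulated data, and how often it recovered differences of the size described here is not reported. The number of arrays limits the precision. Neighbours and promoters came from RefSeq tables, and promoters were aligned globally with Biopython. Figures used matplotlib 3.10.9. Members, lists, motifs and rules for named genes were chosen with earlier results of these data known. The genes open to naming were every member, every measured TAS2R gene, listed signalling and marker genes, the neighbours, LDOC1 and the 5 genes nearest to TAS2R31. The alternatives were quantile normalization, equal medians, filters on dim probe sets, other background genes, other variance models, blocking on replicate number, and dropping each array in turn.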

Additional observations from a re-analysis of the deposited data

How the results depend on the processing

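The TAS2R31 difference was 1.26 as reported and between 1.18 and 1.34 with 1 array left out, and 1.35 after each array was set to its olfactory receptor median, a setting chosen after seeing the data. The median difference of the members ranged from 0.60 (without H2BK120R replicate 2) to 0.88 with 1 array left out. Without the dimmest 50% of probe sets only 3 members stayed in the table, of which 3 were higher and 1 had groups that did not overlap, and 0 other TAS2R genes were higher. Without the dimmest 25%, 2 other TAS2R genes were higher. These 4 counts fell because fewer genes were tested. Of the members, 5 exceeded the 95th percentile of the olfactory receptors, 3 the 99th percentile, and 2 the 95th percentile of keratin-associated and late cornified envelope genes. The labels link the same-numbered arrays by a number only, and whether these arrays also shared a batch is not known. Their replicate deviations correlated at 0.14 over probe sets. Under a replicate block, limma called 0 probe sets at an adjusted p of 0.05, and 1846 had an unadjusted p under 0.05, against 1437 without it, and the TAS2R31 difference stayed 1.26. The count of 0 held under all 12 settings tried, and leaving out 1 array gave unadjusted counts between 495 (H2BK120R replicate 2 dropped) and 2427 (vector replicate 2 dropped). Among 57 single-gene values the sign differed in 3, which were of TAS2R5 and TAS2R20 with 1 array left out. Each member has a single probe set, so the choice of probe set changed no value.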
